A study of Mus musculus with 11 samples.

Results

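Ahr, the gene of the aryl hydrocarbon receptor, is the subject of the values below, followed in dendritic cells of the mouse spleen. Its row was found by gene symbol and is 1 of 417 gene rows deposited for this comparison. The authors had kept a row only where C105F/+ and wild type differed by a fold of at least 2 with an unadjusted p under 0.05, so the genotype difference of Ahr is a property it was selected for, and every test of that difference is a description.

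The aryl hydrocarbon receptor is a transcription factor of the bHLH-PAS family that waits in the cytoplasm bound to chaperones of the Hsp90 complex. Ligands such as dioxins, plant indoles and products of tryptophan breakdown send it to the nucleus, where it pairs with its partner Arnt and binds response elements near genes of foreign-compound metabolism, Cyp1a1 and Nqo1 among them. In dendritic cells it is known for tolerance, for instance through induction of enzymes that degrade tryptophan, and it is also used by T cells, B cells and innate lymphoid cells.

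The libraries fall into C105F/+ (5 libraries, replicates 2 to 6) and WT (6 libraries, replicates 1 to 6). C105F/+ mice are heterozygous for a point mutation that swaps a cysteine of uromodulin, a protein of the kidney tubule, for phenylalanine. It was made by injecting CRISPR guide and Cas9 plasmids with donor DNA into C57BL/6J embryos. The labels give no number of founders, and they write the change as C105F in the titles and as C106F in the growth notes. WT mice are littermates with 2 unmodified copies of the gene. Both groups are C57BL/6J, were killed at 12 to 16 weeks, with no injury and no sex stated in the labels, and gave spleens that were digested with collagenase. Dendritic cells were enriched by magnetic removal of other cells, so no positive sort marks them, and RNA was selected with oligo(dT) for stranded libraries. The labels do not tie libraries to animals, so a p below measures only how these libraries spread, which may be technical.

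Umod itself has no row among those deposited, and a read count would not show a point mutation, so the genotype could not be checked here. Of 25 dendritic cell markers only Itgae and Pacsin1 have rows. Total counts over the 417 rows ran from 314290 to 1198500 in C105F/+ and from 195414 to 416452 in WT, but these sums cover selected genes and do not measure depth. Size factors, recovered exactly from the counts and the deposited means, give relative depth and ran from 0.827 to 1.98 in C105F/+ and from 0.615 to 1.19 in WT. Read counts divided by these factors are called scaled counts.

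Ahr lies on chromosome 12 of the mouse build GRCm38 (mm10), at 35497979 to 35534989 by RefSeq, on the minus strand. Its Entrez gene number is 11622. RefSeq lists 2 transcripts and GENCODE M21 lists 3, of which Ahr-202 has 11 exons and 5548 bases. The 5′ end of Ahr overlaps the long noncoding RNA gene Gm48236 on the other strand over 618 bases, of which 127 are exonic in both. The labels do not state whether counting used the strand, so reads from those bases may belong to either gene.

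Ahr was higher in C105F/+ dendritic cells. It had 4045, 2876, 4234, 4955 and 4505 scaled counts in C105F/+ 2, 3, 4, 5 and 6, against 1625, 1597, 2240, 1484, 2920 and 2473 scaled counts in WT 1, 2, 3, 4, 5 and 6. Of the C105F/+ libraries 4 were above every WT library, while C105F/+ 3 fell between WT 6 and WT 5, and 5 of the 6 WT libraries were below every C105F/+ library. The highest and the lowest level differed 1.72-fold among C105F/+ libraries and 1.97-fold among WT libraries.

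**Figure D1:**
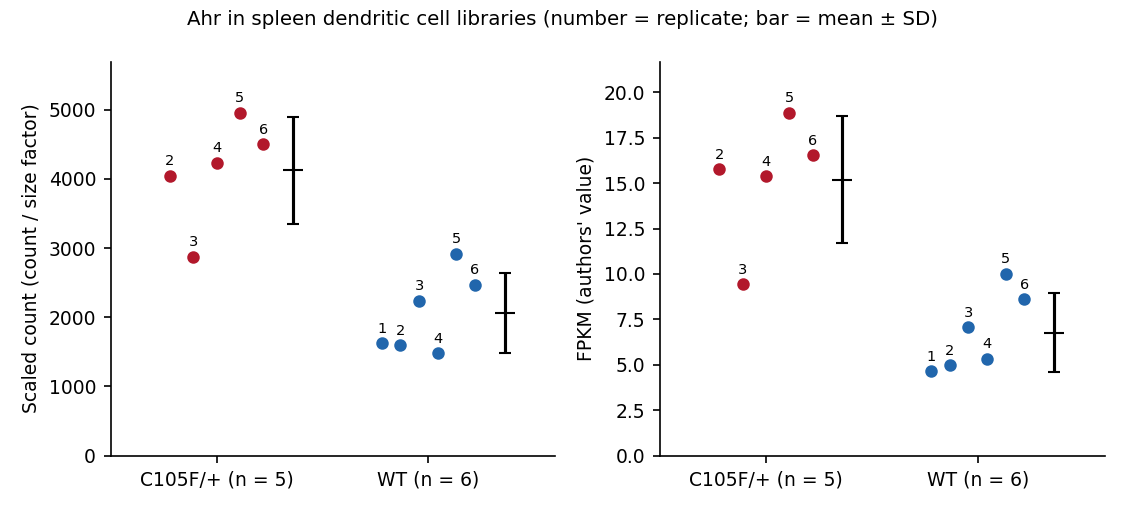
Ahr level in each library as scaled count (left) and as the authors' FPKM (right), with C105F/+ in red left of WT in blue; numbers are replicates and bars are mean ± SD. C105F/+ 3, with 2876 scaled counts and 9.44 FPKM, is the only C105F/+ library within the WT range, whose top is WT 5 with 2920 scaled counts and 10.02 FPKM.

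The mean was 4123 ± 777 scaled counts in C105F/+ (SD, n = 5) and 2056 ± 579 in WT (SD, n = 6), a 2.00-fold difference. These levels rest on 3032 to 8007 reads of Ahr in C105F/+ and 999 to 3465 reads in WT, whose counting error alone is 1.12% to 3.16% of the level per library. The spread between libraries, with a coefficient of variation of 18.8% in C105F/+ and 28.2% in WT, was far larger than that counting error.

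The authors' FPKM values, which also divide by transcript length, placed the same libraries at the boundary between the groups. Ahr had 15.8, 9.44, 15.4, 18.9 and 16.5 FPKM in C105F/+ 2 to 6, against 4.63, 4.97, 7.05, 5.34, 10.02 and 8.61 FPKM in WT 1 to 6. The means were 15.2 ± 3.49 FPKM in C105F/+ (SD, n = 5) and 6.77 ± 2.18 FPKM in WT (SD, n = 6), a ratio of 2.24. Per length, Ahr was among the upper rows of the table in every library, at place 34 to 51 of 417 by FPKM in C105F/+ and place 36 to 60 in WT. On the authors' log2 normalized scale the level was 11.8 ± 0.21 in C105F/+ and 11.1 ± 0.26 in WT, a smaller difference of 0.69.

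By edgeR's quasi-likelihood test over all rows past its filter on low counts, the log2 fold change of Ahr was 1.00 (SE 0.32, Benjamini-Hochberg adjusted p = 0.0295). In that fit 74.5% of the 322 rows tested passed an adjusted p of 0.05, and 52.5% passed with a higher level in C105F/+, so the call of Ahr is shared by most selected rows, whose median log2 fold change was 1.11. A two-sided exact permutation test on Ahr alone, over all 462 ways to assign the libraries, gave p = 0.0065, and 0.0022 is the smallest it can give. The groups did not overlap for 13.4% of the 417 rows, and Ahr is not one of them. Without C105F/+ 2, 5 or 6 the log2 fold change was 1.01, 0.93 and 0.97 and the edgeR adjusted p was 0.0617, 0.0681 and 0.0638, and without WT 4, the library that stands apart in several rows below, it was 0.93 with an adjusted p of 0.0133. Scaled on the selected rows themselves, by TMM or by DESeq2's median ratio, Ahr had a log2 fold change of 0.070 (edgeR adjusted p = 0.886) and 0.29 (0.428), in fits where 8 and 12 rows were called higher and 106 and 91 lower, against 169 higher and 71 lower with the recovered factors. These scalings assume that most rows do not differ, and every row here was selected for a difference, so they cannot decide the Ahr call. In bulk RNA, a larger share of cells that express Ahr and more Ahr RNA per cell cannot be told apart.

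In the authors' deposited table Ahr combines a fold near the threshold with a small p. Its deposited fold of 2.004 was the third smallest of the 417 rows, after that of Macrod2 (-2.001) and before that of Hyal3 (-2.01), where a minus sign marks lower in C105F/+. Its deposited p of 8.24e-06 was nevertheless the 25th smallest, and its deposited standard error of 0.225 on the log2 scale was the fourth smallest. The adjusted p in the authors' deposited table was 0.0022, and 37.6% of the 295 rows with an adjusted p had one under 0.05, 29.8% with a higher level in C105F/+.

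Of a list of 54 genes around the receptor (partners, chaperones, target genes, enzymes that make its ligands, and immune genes linked to it), Nqo1 and Lpar5 have rows. The receptor's partner Arnt, its repressor Ahrr, the targets Cyp1a1, Cyp1b1 and Tiparp and the enzymes Ido1 and Il4i1 were not analysed here. Neither row passed by edgeR, where 74.5% of all rows tested did, and their fitted log2 fold changes had opposite signs.

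Nqo1, a quinone reductase and classic target of the receptor, had 47.0, 34.1, 16.3, 23.6 and 10.9 scaled counts in C105F/+ 2 to 6, against 101, 27.9, 12.7, 327, 21.9 and 39.4 scaled counts in WT 1 to 6. The groups overlapped, and WT 4 alone held more than all C105F/+ libraries together. The log2 fold change was -1.72 with a standard error of 0.79 (edgeR adjusted p = 0.0548, and p = 0.286 by exact permutation), and the WT mean of 88.2 scaled counts was 40.5 without WT 4, against 26.4 in C105F/+. Lpar5, a receptor for lysophosphatidic acid, had 471, 403, 528, 574 and 564 scaled counts in C105F/+ 2 to 6, against 169, 174, 277, 29.3, 487 and 374 scaled counts in WT 1 to 6. For Lpar5 WT 4 was the lowest library, where it had been the highest for Nqo1, and WT 5 reached into the C105F/+ range (log2 fold change 1.01, SE 0.50, edgeR adjusted p = 0.0656).

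The response element of the receptor has the core GCGTG, read as CACGC on the other strand. The 250 bases before the annotated start, from RefSeq promoters of GRCm38.p6, were searched for it on both strands. Of all 32851 promoters in that table, 28.2% held at least 1 core, and so did 32.7% of the 388 promoters of deposited rows. Shown are Nqo1 and Lpar5, as the rows of the receptor's own list, with the core in capitals. The window of Nqo1 is chr8:107403206-107403455 on the minus strand and holds no core, and that of Lpar5 is chr6:125071085-125071334 on the plus strand, the second of its 2 starts, and holds 1 core; the first start holds none.
Nqo1: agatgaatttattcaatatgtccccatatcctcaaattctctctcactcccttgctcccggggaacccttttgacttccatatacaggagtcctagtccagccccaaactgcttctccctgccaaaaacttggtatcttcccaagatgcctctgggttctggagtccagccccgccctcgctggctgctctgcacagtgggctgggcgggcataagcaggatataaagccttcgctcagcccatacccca
Lpar5: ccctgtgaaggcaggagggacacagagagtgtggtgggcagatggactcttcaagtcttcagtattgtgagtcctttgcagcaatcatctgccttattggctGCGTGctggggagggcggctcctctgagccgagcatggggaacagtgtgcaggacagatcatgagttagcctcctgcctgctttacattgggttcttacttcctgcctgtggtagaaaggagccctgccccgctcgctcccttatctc

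Lymphocyte rows were higher in C105F/+ as well, and Ahr was set against them library by library. Of the listed markers, 4 of 22 T cell genes, 7 of 18 B cell genes, 7 of 16 plasma cell genes and 6 of 17 NK cell genes have rows. All were higher in C105F/+, and by edgeR 4 of 4, 7 of 7, 7 of 7 and 3 of 4 tested rows passed, beside 52.5% of all rows tested. Their summed levels ran from 250.4 to 1351 scaled counts in C105F/+ and from 155 to 227 in WT for T cell rows, and from 2101 to 13380.2 in C105F/+ and 1697 to 5655 in WT for B cell rows. Plasma cell rows summed to 19099 to 217015 scaled counts in C105F/+ and 21225 to 32128 in WT, and NK cell rows to 55.0 to 1017 in C105F/+ and 53.8 to 281 in WT. No T cell, B cell or plasma cell row was at 0 in every library of a group; of the NK cell rows, Ncr1 was at 0 in 5 of 6 WT libraries and Klra9 in 4.

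C105F/+ 3, the C105F/+ library with the least Ahr, also had the lowest summed level of each of these 4 lists among C105F/+ libraries. Jchain, the chain that joins antibody polymers, had 13489 scaled counts in it, against 103802 to 196308 in the other C105F/+ libraries and 14972 to 24371 in WT. Ahr in that library was 2876 scaled counts, above 5 of 6 WT libraries, while its summed plasma cell rows were below all 6. Its summed T cell rows, at 250.4 scaled counts, were above all 6 WT libraries (155 to 227). Its B cell and NK cell sums, 2101 and 55.0, lay within the WT ranges of 1697 to 5655 and 53.8 to 281. C105F/+ 4 had Ahr at 4234 scaled counts with lymphocyte levels between those of C105F/+ 3 and the other 3 libraries. The part of lymphocyte content in the Ahr difference was not tested.

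**Figure D2:**
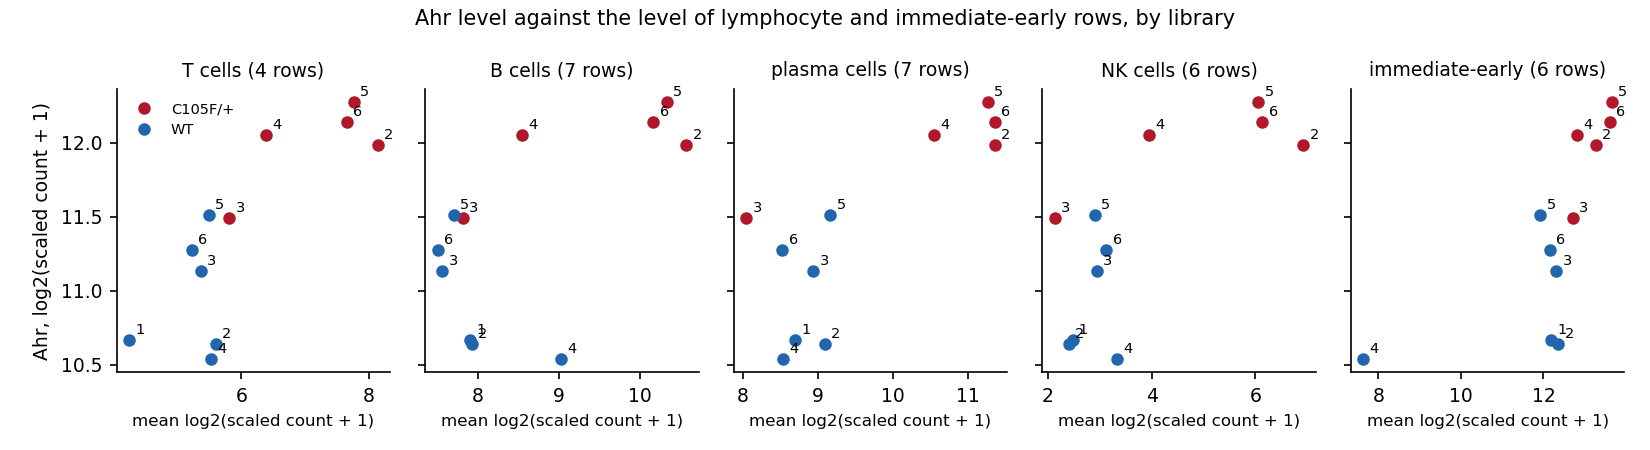
Ahr level (vertical, log2 of scaled count + 1) against the mean level over the rows of each list (horizontal, log2 of scaled count + 1), with C105F/+ in red and WT in blue and replicate numbers beside the points. C105F/+ 2, 5 and 6 sit at the upper right of each lymphocyte panel, and WT 4 stands far to the left for immediate-early rows. C105F/+ 3 lies right of every WT library for T cell rows and among them for B cell rows. For plasma cell and NK cell rows it lies left of every WT library.

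Because every row was selected for a genotype difference, a correlation over all libraries would follow from the selection. The relation was therefore measured within genotype, after subtracting each genotype's mean, over 11 libraries, with an exact permutation of libraries within genotype and adjustment over 6 relations. The level of a list is its mean log2(scaled count + 1). With plasma cell rows Pearson's r of Ahr was 0.56 (exact permutation p = 0.042, adjusted p = 0.243) and the rank correlation within genotype, Spearman's rho, was 0.27 (exact permutation p = 0.478). The r was 0.59 without C105F/+ 2 and 6, the 2 libraries farthest from the median plasma cell level, but 0.27 without C105F/+ 3, so the relation rests on that library.

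The other lymphocyte lists gave weaker relations. With T cell rows r was 0.44 (exact permutation p = 0.183, adjusted p = 0.282) and rho was -0.13 (p = 0.764), and r was 0.42 without C105F/+ 2 and 5. With NK cell rows r was 0.47 (exact permutation p = 0.0809, adjusted p = 0.243) and rho was 0.091 (p = 0.841), and r was 0.55 without C105F/+ 2 and 6. Without C105F/+ 3, r was 0.16 for T cell rows and 0.092 for NK cell rows. With B cell rows r was 0.11 (exact permutation p = 0.742, also the adjusted value) and rho was -0.38 (p = 0.302), and r was -0.041 without C105F/+ 2 and 5. Among the 6 WT libraries alone the r with B cell rows was -0.70 (exact permutation p = 0.0667, adjusted p = 0.4). No relation passed an adjusted p of 0.05 in this form.

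Immediate-early genes are induced quickly by outside signals and by the handling of tissue. They have 6 rows of 30 listed: Fos, Fosb, Egr2, Egr3, Klf2 and Klf4. All 6 had higher means in C105F/+, and 2 of 6, Egr2 and Klf4, passed by edgeR, beside 52.5% of all rows tested that passed as higher. Their summed level was 58493 to 117410 scaled counts in C105F/+ and 35147 to 43261 in 5 WT libraries, and only 1509 in WT 4, which also had the lowest Ahr level in scaled counts, though by FPKM WT 1 and WT 2 were lower. Within genotype the r of Ahr with these rows was 0.47 (exact permutation p = 0.188, adjusted p = 0.282) and rho was 0.27 (p = 0.478). Without C105F/+ 5 and WT 4, the 2 libraries farthest from the median, r was 0.091, so the value of 0.47 rests on those libraries. In the other 5 WT libraries Ahr ranged from 1597 to 2920 scaled counts while the immediate-early level stayed within 11.9 to 12.4 on the log2 scale. Relative depth, as log2 size factor, had an r of 0.18 with Ahr within genotype (exact permutation p = 0.605, adjusted p = 0.726), a rho of 0.13 (p = 0.764) and an r of 0.077 without C105F/+ 2 and WT 1.

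The highest r of single rows with Ahr exceeded that of these lists, a comparison that ranking many rows favours. Likeness was measured as Pearson's r within genotype over 11 libraries among the 235 other rows with a mean of at least 50 scaled counts, and it is given as a description without a p because the rows were ranked by it. The 6 most like rows were Fzd1 (r = 0.98), Elmsan1 (0.97), Flt1 (0.97), Rab11fip4 (0.94), Zhx3 (0.92) and Plcb4 (0.92). Of these, 5 were also among the 6 most like without subtracting genotype means, where Kdm6b took the remaining place. That overlap follows in part from the selection for a genotype difference, so it adds nothing to the ranking.

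Fzd1, a receptor for Wnt proteins, had 1785, 1038, 2067, 2037 and 1925 scaled counts in C105F/+ 2 to 6, against 582, 597, 899.7, 453, 1353 and 1176 scaled counts in WT 1 to 6. As with Ahr, C105F/+ 3 was the lowest C105F/+ library, WT 5 and WT 6 were the highest WT libraries, and C105F/+ 3 lay among the WT libraries. Flt1, a receptor for vascular endothelial growth factor, had 652, 275, 685, 891 and 697 scaled counts in C105F/+ 2 to 6, against 164, 170.0, 242, 109, 469 and 405 scaled counts in WT 1 to 6. Elmsan1 (now named Mideas), a protein with ELM2 and SANT domains, had 7156, 5703, 8364, 9928 and 8827 scaled counts in C105F/+ 2 to 6, against 2955, 2825, 4830.0, 2315, 6174 and 4779 scaled counts in WT 1 to 6.

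The likeness of these 3 rows to Ahr did not rest on 1 library. Leaving out each library in turn, r stayed at 0.968 to 0.985 for Fzd1, 0.963 to 0.984 for Elmsan1 and 0.965 to 0.982 for Flt1, and with FPKM values the 3 rows again held the first 3 places. In the 6 WT libraries alone r was 0.99, 0.99 and 0.97, and Spearman's rho was 0.94 for each. Rab11fip4, an effector of the Rab11 recycling GTPase, Zhx3, a zinc finger and homeobox protein, and Plcb4, a phospholipase C, had an r of 0.96, 0.90 and 0.98 in the WT libraries. With each library left out in turn, their r was 0.906 to 0.952, 0.882 to 0.967 and 0.887 to 0.947. Spearman's rho within genotype was 0.96, 0.85 and 0.64, and with FPKM values they held places 4, 5 and 10.

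**Figure D3:**
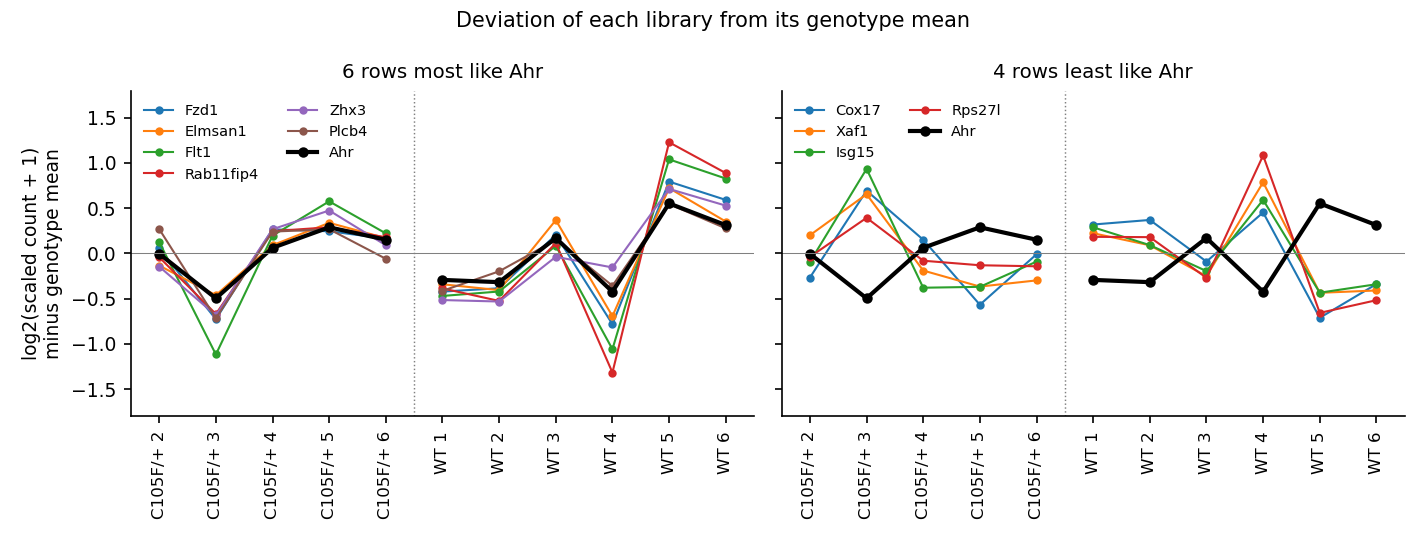
Deviation of each library from its genotype mean (vertical, log2 of scaled count + 1) for Ahr in black and for the 6 rows most like it (left) and the 4 least like it (right), with C105F/+ libraries left of the dotted line and WT libraries right of it. C105F/+ 3 and WT 4 are low and WT 5 is high for Ahr and most of the like rows, and the 4 least like rows run the other way.

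The promoters of the 3 most like rows are shown to set beside those of Nqo1 and Lpar5, with the core of the response element in capitals. They are chr5:4758217-4758466 for Fzd1, chr12:84218882-84219131 for the upstream start of Elmsan1 and chr5:147726012-147726261 for Flt1, all on the minus strand of GRCm38.p6. Flt1 holds 1 core, Fzd1 none and Elmsan1 none at either of its 2 starts.
Fzd1: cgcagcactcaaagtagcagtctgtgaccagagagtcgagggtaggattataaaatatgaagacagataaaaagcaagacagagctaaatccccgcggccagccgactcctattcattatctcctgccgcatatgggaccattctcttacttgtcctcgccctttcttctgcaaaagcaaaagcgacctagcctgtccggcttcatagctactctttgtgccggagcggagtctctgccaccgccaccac
Elmsan1: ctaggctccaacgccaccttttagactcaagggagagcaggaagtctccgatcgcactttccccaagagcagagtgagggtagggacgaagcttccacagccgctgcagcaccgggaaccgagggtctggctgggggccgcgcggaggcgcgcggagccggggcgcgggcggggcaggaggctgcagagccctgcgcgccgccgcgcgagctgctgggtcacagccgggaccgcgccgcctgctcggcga
Flt1: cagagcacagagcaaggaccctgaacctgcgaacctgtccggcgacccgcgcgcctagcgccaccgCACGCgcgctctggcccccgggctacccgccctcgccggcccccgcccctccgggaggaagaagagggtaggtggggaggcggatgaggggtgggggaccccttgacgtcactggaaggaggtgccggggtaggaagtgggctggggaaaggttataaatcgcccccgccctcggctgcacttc

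The least like rows ran opposite to Ahr. They were Cox17 (r = -0.94), a copper chaperone for cytochrome c oxidase, Xaf1 (-0.91) and Isg15 (-0.90), which are induced by interferon, and Rps27l (-0.88), a relative of a ribosomal protein. Cox17 had 1524, 2964, 2035, 1237 and 1821 scaled counts in C105F/+ 2 to 6, against 5023, 5201, 3782, 5509, 2458 and 3182 scaled counts in WT 1 to 6. In WT its order was the exact reverse of that of Ahr (rho = -1), with WT 4 highest and WT 5 lowest. Isg15 had 1331, 2716, 1092, 1099.8 and 1334 scaled counts in C105F/+ 2 to 6, against 4232, 3692, 3026, 5221, 2564 and 2736 scaled counts in WT 1 to 6. With FPKM values the r was -0.89 for Cox17 and -0.78 for Isg15, and it was weaker for Xaf1 (-0.67) and Rps27l (-0.61).

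Likeness to Ahr within genotype split by the direction of the genotype difference. Of 173 other rows that were higher in C105F/+, 153 had a positive r and the median was 0.42, and of 62 rows that were lower none had, with a median of -0.59. Without C105F/+ 3 the medians were 0.24 and -0.54, and in the 6 WT libraries alone 0.25 and -0.60. In WT alone 110 of the 173 higher rows and 4 of the 62 lower rows had a positive r. Within that spread the lymphocyte and immediate-early rows with enough counts ran from place 28 to place 173 of 235. The closest was Txndc5, a protein disulfide isomerase abundant in plasma cells, at place 28 (r = 0.73). Cd28, the costimulatory receptor of T cells, was at place 29 (0.72) and Jchain at place 44 (0.63). The most like immediate-early row was Egr3 at place 58 (r = 0.58), and the least like of the lymphocyte rows was the B cell factor Ebf1 at place 173 (-0.25).

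**Figure D4:**
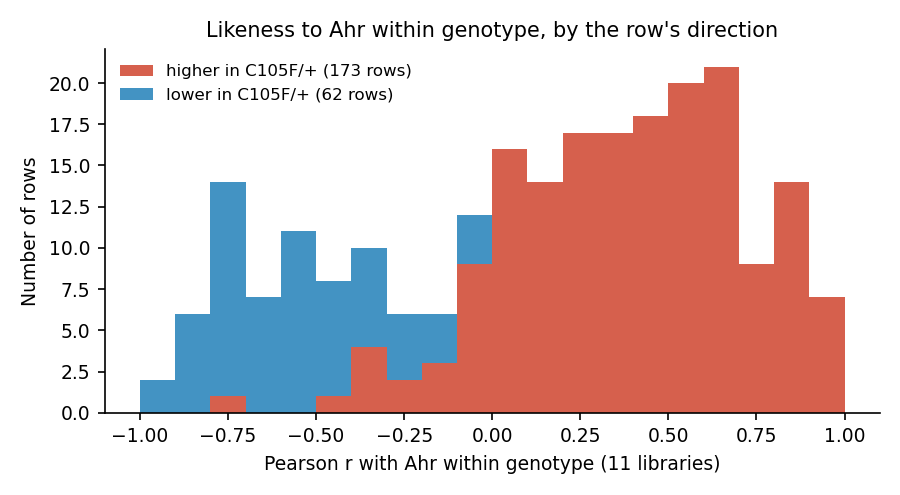
Number of rows (vertical) by their Pearson r with Ahr within genotype over 11 libraries (horizontal), stacked by whether the row was higher or lower in C105F/+. Rows higher in C105F/+ have a median r of 0.42, and all 62 lower rows lie below 0.

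Rows of markers of further cell types also differed by genotype, and their part in the Ahr difference was not tested. The calls below stand beside the 74.5% of all rows tested that passed in either direction and the 52.5% that passed as higher, so they say nothing particular to these markers. Of 10 innate lymphoid genes, cells known to depend on Ahr, Zbtb16 and Il17rb have rows, with summed levels of 79.7 to 292 scaled counts in C105F/+ and 76.4 to 127 in WT, and Zbtb16 alone passed by edgeR. Of 18 monocyte and macrophage genes Ace and F13a1 have rows and both passed, with sums of 2000.4 to 10765 scaled counts in C105F/+ and 320.4 to 5266 in WT. Of 12 neutrophil genes 4 have rows and 4 passed, with sums of 704 to 5582 scaled counts in C105F/+ and 578 to 1128 in WT. Of 12 eosinophil, basophil and mast cell genes 4 have rows and 4 passed, 3 of them higher and Mcpt1 lower, with sums of 375 to 8372 scaled counts in C105F/+ and 340.4 to 1284 in WT. The dendritic cell rows Itgae and Pacsin1 both passed and summed to 1454 to 4885 scaled counts in C105F/+ and 1079 to 1471 in WT, apart from WT 4 with 168.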

How the data were processed

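RNA of 5 C105F/+ and 6 WT libraries was analysed from 1 deposited table. The submitters' processing notes name the build mm10, DESeq2, StringTie 2.1.3b, HISAT2 2.1.0 and Bowtie2 2.3.4.1, with Trimmomatic 0.38 and FastQC 0.11.7, and give no settings here. Read counts are deposited without normalization, per the file headers. For each library the authors also deposited an FPKM value and a normalized value on a log2 scale, whose transformation the labels do not state. The authors' fold is a deposited score column with a sign, their standard error and test statistic are deposited score columns, their mean is a deposited signal (size-factor-scaled counts averaged over libraries), and their p-value and adjusted p-value are deposited too. Of 417 rows, 122 carry no adjusted p.

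Size factors were solved from counts and deposited means (largest relative error 2.11e-14). The test was edgeR 4.0.16 under R 4.3.3, on the counts with these factors, edgeR's low-count filter (322 rows left) and Benjamini-Hochberg adjustment. DESeq2 1.42.0 and limma 3.58.1 served as alternatives, with other scalings, pseudocounts, FPKM values, a replicate block and each library left out. Relations used log2(scaled count + 1), a pseudocount of 1. Transcript lengths come from GENCODE M21 for 403 rows and promoters from RefSeq. The code was tested on simulated data.

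The gene and the lists were chosen with earlier results of these data known, and the lists were written by symbol. Named genes are Ahr, every row of the receptor's list, the 6 most and 4 least like rows within genotype, the 6 most like without centring, and up to 4 rows per marker list by mean level, with a mean of at least 50 scaled counts for likeness. Of these, those not described are summarised by their list. Egr2, Egr3, Ncr1, Klra9 and Ebf1, the deposited neighbours by fold (Macrod2 and Hyal3) and listed genes without a row were named after values were seen.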

Additional observations from a re-analysis of the deposited data

Results flagged for a closer look

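The highest or lowest library of a genotype was set against the others with Dixon's criterion on the log2 scale, for Ahr in scaled counts and FPKM, 5 lists, the 2 rows of the receptor's list and the 10 most or least like rows. Of 38 such groups 8 held a library that stood apart, and Ahr itself had none. Chance flags about 1 in 20 independent groups, but these are not independent, since the like and least like rows were chosen for following or mirroring Ahr, whose lowest C105F/+ library is also C105F/+ 3. C105F/+ 3 stood apart in 5 of them. Its plasma cell level was 8.05, against 10.5 to 11.4 in the other C105F/+ libraries, its Fzd1 level was 10.02, against 10.8 to 11.01, and its Flt1 level was 8.11, against 9.35 to 9.80. It had more Isg15, 11.4 against 10.1 to 10.4, and more Rps27l, 11.2 against 10.6 to 10.7. In WT, the T cell level of WT 1 was 4.24, against 5.22 to 5.60 in the others. WT 4 had a B cell level of 9.03, against 7.5 to 7.92, and an immediate-early level of 7.64, against 11.9 to 12.4.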

How the results depend on the processing

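The log2 fold change of Ahr was 1.00 and stayed positive under every alternative run. When factors came from the deposited rows alone, the median over rows moved by -0.96 (TMM) and -0.76 (DESeq2 size factors) and Ahr was at 0.070 (edgeR adjusted p = 0.886) and 0.29 (0.428), with 114 and 103 rows passing in place of 240 and 8 and 12 of these higher in place of 169. Factors of that kind take most rows to be unchanged, while these rows were selected for a difference. DESeq2 with the same size factors called 377 rows and gave Ahr 1.00 (adjusted p = 0.0037). The scaling of the FPKM values called 193 of 238 rows as higher and gave Ahr 1.16 (adjusted p = 0.0215). Leaving out each library gave Ahr 0.93 to 1.13 by edgeR, with adjusted p from 0.0079 to 0.0681 and 11 to 280 rows passing; 11, 13 and 17 rows passed without C105F/+ 2, 5 and 6, and 205, 197 and 204 at an unadjusted p under 0.05. The permutation difference was 0.94 to 1.151 (exact p 0.0048 to 0.0159).

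Same-numbered libraries share a replicate number whose meaning the labels do not state. The correlation of their deviations ran from -0.17 to 0.32 and passed 0.1 in 1 of 5 pairs, and 1 of 5 correlated best with its own number. Since the rows were selected for the genotype difference, these values cannot decide whether the numbers mark pairs. With the replicate block Ahr had 0.97 (adjusted p = 0.0944), and 0 rows passed by edgeR, against 163 at an unadjusted p under 0.05.

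With the log2 of summed counts in place of mean levels, the relation to plasma cell rows was 0.62 and passed (exact permutation p = 0.0045, adjusted p = 0.0272). Jchain held most of that sum, with 183612 of 205540 scaled counts in C105F/+ 2 and 13489 of 19099 in C105F/+ 3. This form was not run without C105F/+ 3, the library whose removal lowered the r of mean levels to 0.27. For NK cell rows r was 0.20 on summed counts (exact permutation p = 0.539). With a pseudocount of 10 it was 0.32, against the 0.47 given above. By rank the relations to T cell and B cell rows turned negative (-0.13 and -0.38), and that to B cell rows also in WT alone (-0.70), without the 2 farthest libraries (-0.041) and without C105F/+ 3. Leaving out each library gave -0.38 to 0.37 for B cell rows, 0.16 to 0.56 for T cell rows, 0.27 to 0.64 for plasma cell rows, 0.092 to 0.58 for NK cell rows, 0.25 to 0.60 for immediate-early rows and 0.025 to 0.29 for size factor. The cause of these changes was not tested. Ahr had at least 999 reads in each library, a counting error of at most 3.16%.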

Other observations

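Transcript length went with likeness to Ahr across rows. The 6 most like rows had a median transcript length of 6056 bases and the 4 least like rows 665.5 bases, beside 5548 bases for Ahr and 2859 for all rows with a length. Across 229 rows the rank correlation of length with r was 0.37 on scaled counts and 0.37 on FPKM values, given as a description because genes are not independent. Length also went with direction, with a median of 3312.5 bases for 250 higher rows and 2057 for 153 lower rows, and within each direction the rank correlation was smaller, 0.17 among 172 higher and 0.10 among 57 lower rows. Of 130 rows whose length lay within 1.5 times that of Ahr, 73.8% were higher, against 60.7% of all rows. The part of transcript length in the Ahr difference was not tested.

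The ratio of Ahr to Elmsan1 in scaled counts was 0.52 ± 0.027 in C105F/+ (SD, n = 5) and 0.54 ± 0.066 in WT (SD, n = 6), with a range of 0.464 to 0.641 over all libraries. The ratio of Ahr to Cox17 was 2.44 ± 1.09 in C105F/+ and 0.58 ± 0.36 in WT, with a range of 0.269 to 4.01. These rows had been chosen by their likeness, so the ratios carry no test.

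For Kdm6b, a demethylase of histone H3 lysine 27, the ratio of Ahr to it was 0.37 ± 0.011 in C105F/+ (SD, n = 5) and 0.38 ± 0.062 in WT (SD, n = 6), with a range of 0.309 to 0.457 over all libraries. Kdm6b was chosen by its likeness without subtracting genotype means, and its deposited fold of 2.02 was close to that of Ahr. A similar ratio in both groups follows from that choice, so this ratio carries no test.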
